A study of Rattus norvegicus with 12 samples.

Results

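The insulin-like growth factor axis was described here by 10 genes: the ligands Igf1 and Igf2, the receptors Igf1r and Igf2r, the binding proteins Igfbp2, Igfbp3, Igfbp4 and Igfbp5, and the receptor substrates Irs1 and Irs2. Members were chosen by name, as every probe set of the value table whose single platform-table symbol is 1 of these genes, which gave 22 of the 31042 probe sets that are not controls. Total RNA from rat cerebellar granule neuron cultures was measured on 12 Affymetrix arrays, 3 in each of 4 groups, lettered A, B and C. The groups were GW5074 and low potassium at 6 h, and GW5074 and low potassium at 3 h. No strain, animal age, potassium concentration or GW5074 dose is given in the labels. They also leave unstated if cultures with GW5074 were kept in low potassium, and if each letter is a culture of its own. The p-values therefore measure only the spread between these samples, which may be technical, and precision is limited by 3 arrays a group. The GW5074 6 h array A carries a title suffix that the other 11 do not share and that no label explains.

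As background, granule neurons are the small glutamatergic neurons of the cerebellum, and in culture they survive in depolarising high potassium and die by apoptosis when potassium is lowered. GW5074 is a synthetic inhibitor of the kinase c-Raf that has been described as protective in such cultures. Igf1 is a secreted survival factor for these neurons: it binds the receptor tyrosine kinase Igf1r, which acts through the docking proteins Irs1 and Irs2 on PI3-kinase and AKT. Secreted binding proteins hold the ligands away from the receptor or deliver them to it, and Igf2r, which has no kinase, takes up Igf2 for degradation.

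The members whose level passed a test in these arrays were Igf1r, Igfbp3 and Igfbp5, all between 6 h and 3 h, so their promoters are printed to show what kind of start each gene has. Each stretch runs from 250 bases before to 50 after the annotated start, 5′ to 3′ on the gene's own strand, from RefSeq on the GRCr8 build, and capitals mark the GC box GGGCGG on either strand.
Igf1r: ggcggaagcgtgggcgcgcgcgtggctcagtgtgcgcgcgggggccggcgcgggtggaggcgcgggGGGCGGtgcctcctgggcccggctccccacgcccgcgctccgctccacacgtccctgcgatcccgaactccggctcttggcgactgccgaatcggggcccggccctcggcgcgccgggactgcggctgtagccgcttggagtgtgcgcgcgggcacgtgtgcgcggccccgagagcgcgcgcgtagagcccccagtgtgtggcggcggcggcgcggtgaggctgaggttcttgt
Igfbp3: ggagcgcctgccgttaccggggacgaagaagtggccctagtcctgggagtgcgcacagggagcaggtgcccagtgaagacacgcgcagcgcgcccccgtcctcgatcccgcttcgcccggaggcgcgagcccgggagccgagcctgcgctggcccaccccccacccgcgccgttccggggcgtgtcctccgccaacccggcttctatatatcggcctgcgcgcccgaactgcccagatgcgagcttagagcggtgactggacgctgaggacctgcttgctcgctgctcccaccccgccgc
Igfbp5: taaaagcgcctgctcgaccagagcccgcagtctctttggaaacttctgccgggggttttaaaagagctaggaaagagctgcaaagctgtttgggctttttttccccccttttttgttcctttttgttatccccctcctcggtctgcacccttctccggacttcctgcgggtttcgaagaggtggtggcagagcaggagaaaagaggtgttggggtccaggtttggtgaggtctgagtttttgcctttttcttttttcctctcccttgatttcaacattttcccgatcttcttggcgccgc
The Igf1r stretch lies on the plus strand at chr1:130959747-130960046, the Igfbp3 stretch on the minus strand at chr14:86277895-86278194 and the Igfbp5 stretch on the minus strand at chr9:81914138-81914437. G and C made up 78.0% of the Igf1r stretch, 71.7% of the Igfbp3 stretch and 50.7% of the Igfbp5 stretch, against a median of 51.7% over 33469 rat promoters of the same length. The search covered the TATA box TATAAA, the GC box GGGCGG, the FOXO motif TGTTTAC, the AP-1 motif TGANTCA and the cyclic AMP response element TGACGTCA on both strands, none of which contains another. Igf1r held 1 GGGCGG, a motif in 33.1% of all promoters, and no other match. Neither Igfbp stretch held any of these letters, which are found in 14.2% (TATAAA), 3.78% (TGTTTAC), 7.33% (TGANTCA) and 1.83% (TGACGTCA) of all promoters. Only exact matches inside the stretch were counted, so the ctatatatcgg of the Igfbp3 stretch was not, nor would a motif cut by an edge be. Of the 10 genes, 9 had a promoter in the table, and Irs2 did not.

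Each value is a deposited intensity in arbitrary units, not logged, and every array has the same trimmed mean. Levels of different probe sets are not comparable with each other. Of the 22 member probe sets, 15 from 8 genes were bright enough to be tested, with a mean at or above the 40th percentile of all probe sets. The other 7 were too dim: all 4 of Igf2, the single one of Irs1, 1 of Igf1 and 1 of Igfbp5. In a fit with no filter on brightness, the lowest adjusted p over the 6 comparisons of these 7 was 0.141 (limma). All 12 granule neuron markers on the array were bright enough to be tested, and their summed intensity was 16703 to 19819 in GW5074 and 15295 to 17601 in low potassium at 6 h, against 10137 to 11964 in GW5074 and 10623 to 13225 in low potassium at 3 h. Both 6 h arrays of letter B stood apart: on the first principal component (54.7% of the variance), scaled so that the median 3 h array is 0 and the median 6 h array 1, they lay at 0.574 (GW5074) and 0.630 (low potassium), while the other 6 h arrays lay at 0.991 to 1.11 and the 3 h arrays at -0.0558 to 0.120. The actin probe sets' 3′ minus 5′ signal was higher with GW5074 in 6 of 6 same-letter pairs, by 0.112 on the log2 scale on average (exact sign-flip test, two-sided p = 0.0313, the smallest that 6 pairs allow), a measure of RNA quality whose part in the results was not tested.

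The receptor and 1 binding protein moved in opposite directions with time. Igf1r was higher and Igfbp3 lower at 6 h than at 3 h, on both probe sets of each gene and in both treatments. In bulk RNA, a lower level can be fewer cells of a type or less RNA per cell, and these cannot be told apart. In GW5074, 4 of the 15 tested member probe sets passed the threshold (limma, Benjamini-Hochberg adjusted p under 0.05), 2 higher and 2 lower at 6 h, where 25.0% of all 18625 tested probe sets did (13.1% higher and 11.9% lower). In low potassium, 5 of 15 did, 2 higher and 3 lower, where 22.7% of all tested probe sets did (11.6% higher and 11.0% lower). Read against those shares, the number of member calls is not a result about the members, and the direction and size of each gene's change are what follows. The median difference of the 15 was -0.03 in GW5074 and -0.15 in low potassium, against -0.0036 and -0.0028 over all tested probe sets. After normalisation, the 3 arrays at 6 h did not overlap the 3 at 3 h for 6 of 15 in GW5074 (39.9% of all) and 4 of 15 in low potassium (39.1% of all). The 6 comparisons share arrays, so they are not independent of each other. Differences are on the scale of log2(intensity + 16) after quantile normalisation, which understates the change of dim probe sets.

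**Figure D1:**
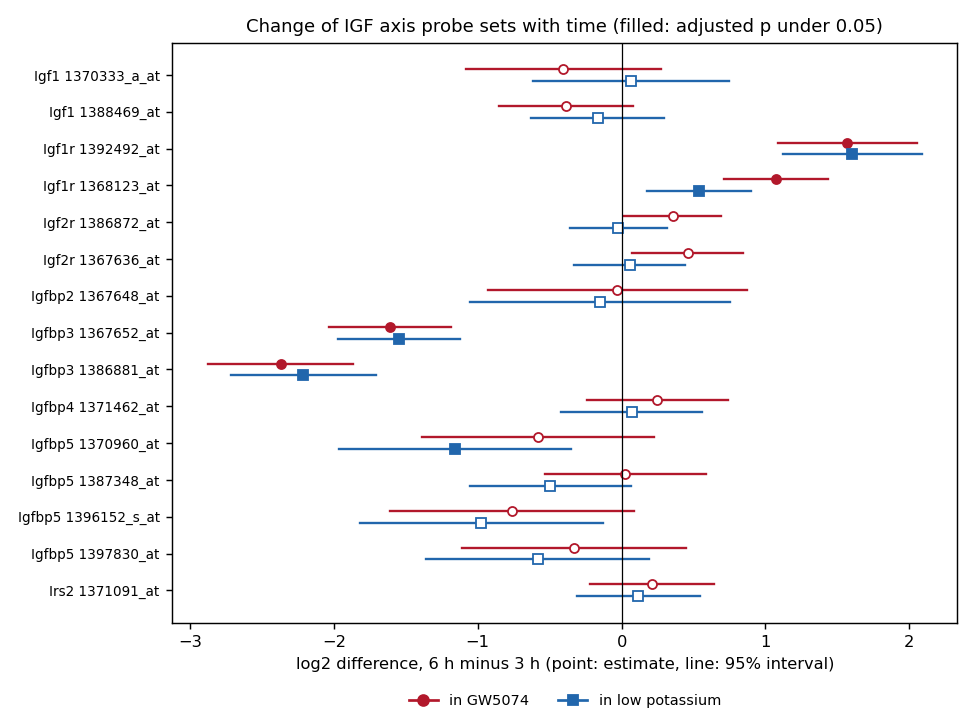
Log2 difference of each tested probe set of the insulin-like growth factor axis, 6 h minus 3 h, in GW5074 (circles) and low potassium (squares), with 95% intervals from the fit (3 arrays a group). Filled points passed the threshold: both Igf1r probe sets lie right of 0, both Igfbp3 probe sets left of it, and 1 Igfbp5 probe set is filled in low potassium only.

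Among the ligands, Igf1 was measured on 2 testable probe sets and neither passed the threshold in any of the 6 comparisons. Its brighter probe set (1370333_a_at) read 133, 97.1 and 135 in the 6 h GW5074 arrays, against 269, 87.6 and 116 in the 6 h low potassium arrays. It read 133, 202 and 145 in the 3 h GW5074 arrays, against 114, 185 and 99.1 in the 3 h low potassium arrays. One 6 h low potassium array, letter A, stood above the other 11. In GW5074 all 3 arrays at 6 h lay below all 3 at 3 h after normalisation, though not in the deposited values, and the difference of -0.40 did not pass the test (limma adjusted p = 0.38). In low potassium it was 0.07 (adjusted p = 0.904). The second probe set (1388469_at) averaged 68.6 ± 15.7 in GW5074 and 81.4 ± 37.3 in low potassium at 6 h, and 93.1 ± 7.14 in GW5074 and 86.8 ± 4.8 in low potassium at 3 h (SD, n = 3 each). Its 6 h minus 3 h differences were -0.39 in GW5074 and -0.17 in low potassium, both with intervals that hold 0. All 4 Igf2 probe sets were dim: the brightest (1367571_a_at) read 37.3, 40.1 and 5.48 in GW5074 and 16.7, 19.1 and 25.9 in low potassium at 6 h, and 32.1, 32 and 9.47 in GW5074 and 45.1, 32.2 and 3.38 in low potassium at 3 h. The 4 groups overlapped. The other 3 Igf2 probe sets lay at the 12.0th percentile of all probe sets or lower, so no statement on Igf2 can be drawn at this brightness.

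Igf1r, the receptor that carries the signal of both ligands, was the only one of the 8 genes tested that passed the threshold as higher at 6 h in the full set of arrays. Its brighter probe set (1392492_at) read 850.2, 584 and 798 in the 6 h GW5074 arrays, against 633, 588 and 791 in the 6 h low potassium arrays. It read 188, 179.7 and 365 in the 3 h GW5074 arrays, against 183, 196 and 236 in the 3 h low potassium arrays. Every 6 h array lay above every 3 h array, and the treatments overlapped at each time. Its level was 2.97-fold higher at 6 h in GW5074 (log2 difference 1.57 ± 0.225 SE, limma adjusted p = 4.79e-04) and 3.04-fold higher in low potassium (1.60 ± 0.225, adjusted p = 6.42e-04). Ordered by mean, GW5074 at 6 h came first (744 ± 141), then low potassium at 6 h (671 ± 107), then GW5074 at 3 h (244 ± 105) and then low potassium at 3 h (205 ± 27.6; SD, n = 3 each), and the 2 groups of each time did not differ beyond their spread. The granule neuron markers given above were also higher at 6 h in both treatments, with 11 of 12 past the threshold in GW5074 and 5 of 12 in low potassium (1 was lower). Of all tested probe sets, 13.1% were higher at 6 h in GW5074 and 11.6% in low potassium. Summed astrocyte and Bergmann glia markers were higher too, at 4762 to 5172 in GW5074 and 4338 to 6688 in low potassium at 6 h. At 3 h they read 3077 to 3439 and 3071 to 3813, and 2 of 9 passed as higher in each treatment. The median log2 difference of the 9 was only -0.01 in GW5074 and 0.07 in low potassium, so these sums do not stand for the whole list. Choroid plexus and ependyma sums were also higher, with 2 of 3 past the threshold in GW5074 and 1 of 3 in low potassium. The median difference of the 3 was 0.56 in GW5074 but -0.08 in low potassium, where the sum does not stand for the list. The part of these lists in the gain of Igf1r was not tested.

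The second Igf1r probe set (1368123_at) also gained with time. It read 170.0, 151 and 198 in the 6 h GW5074 arrays, against 119, 138 and 154 in the 6 h low potassium arrays. It read 58.3, 66.3 and 91.2 in the 3 h GW5074 arrays, against 96.1, 79.7 and 81.5 in the 3 h low potassium arrays. The 6 h arrays lay above the 3 h arrays here too. The difference was 1.07 ± 0.169 in GW5074 (2.1-fold, adjusted p = 8.45e-04) and 0.54 ± 0.169 in low potassium (1.45-fold, adjusted p = 0.0344, limma). The low potassium call of this Igf1r probe set was lost without low potassium 3 h array B (0.48, adjusted p = 0.121) or C (0.52, 0.0799), without low potassium 6 h array B (0.53, 0.0610) or C (0.45, 0.136), and without any filter (0.54, 0.0660). The gain was larger in GW5074 by 0.53 (95% interval 0.02 to 1.04), which reached an unadjusted p of 0.043 but an adjusted p of 1, so a difference between the treatments was not shown. On 1392492_at the same difference of gains was -0.03 (-0.72 to 0.65).

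Igf2r, the uptake receptor, did not pass the threshold in any comparison. Its brighter probe set (1386872_at) read 323, 265 and 274 in the 6 h GW5074 arrays, against 202, 294 and 249.7 in the 6 h low potassium arrays. It read 186, 206 and 233 in the 3 h GW5074 arrays, against 231, 218 and 269 in the 3 h low potassium arrays. In GW5074 the 6 h arrays lay above the 3 h arrays, by 0.36 (adjusted p = 0.113), while in low potassium they overlapped (-0.02, adjusted p = 0.935). The second Igf2r probe set (1367636_at) averaged 184 ± 35.8 in GW5074 and 141 ± 26.9 in low potassium at 6 h, and 122 ± 24.7 in GW5074 and 126 ± 6.95 in low potassium at 3 h. Its 6 h minus 3 h difference in GW5074 was 0.46 (adjusted p = 0.0781), and it passed the threshold in 4 of 21 alternatives: without GW5074 3 h array C (0.58, adjusted p = 0.0458), without GW5074 6 h array B (0.59, 0.0312), without both 6 h letter B arrays (0.59, 0.0299) and without quantile normalisation (0.53, 0.0459).

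**Figure D2:**
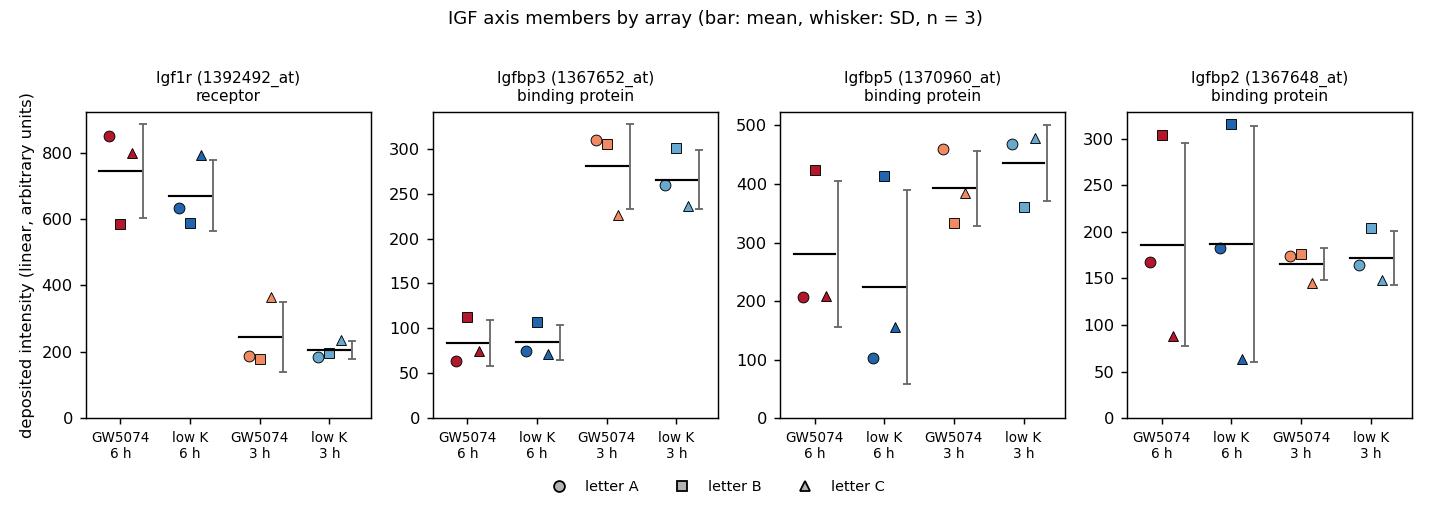
Deposited intensity (linear scale) of 1 probe set each of Igf1r, Igfbp3, Igfbp5 and Igfbp2 on every array, by group (low K, low potassium), with the letter as the marker, the mean as a bar and the SD as a whisker (n = 3). Igf1r is high and Igfbp3 low in all 6 h arrays, whereas the 6 h letter B arrays of Igfbp5 and Igfbp2 (squares) stand above the other 6 h arrays.

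Igfbp3, a binding protein that carries most of the circulating ligand in mammals, was lower at 6 h on both of its probe sets and in both treatments. Its brighter probe set (1367652_at) read 63.6, 113 and 74.8 in the 6 h GW5074 arrays, against 75.3, 107 and 72 in the 6 h low potassium arrays. It read 309.9, 305 and 226 in the 3 h GW5074 arrays, against 260.0, 301 and 236 in the 3 h low potassium arrays. No 6 h array reached the lowest 3 h array. The level was 3.05-fold lower at 6 h in GW5074 (-1.61 ± 0.198, adjusted p = 2.16e-04) and 2.93-fold lower in low potassium (-1.55 ± 0.198, adjusted p = 4.10e-04, limma). The second Igfbp3 probe set (1386881_at) read 22.5, 49 and 17.1 in the 6 h GW5074 arrays, against 27.3, 45.1 and 21.9 in the 6 h low potassium arrays. It read 206, 206 and 216 in the 3 h GW5074 arrays, against 155, 217 and 214 in the 3 h low potassium arrays. Again the times did not overlap, and the difference was -2.37 ± 0.235 in GW5074 (5.17-fold, adjusted p = 7.69e-05) and -2.21 ± 0.235 in low potassium (4.63-fold, adjusted p = 1.44e-04). On a scale where the median 3 h array of Igfbp3 is 0 and the median 6 h array 1, the 6 h letter B arrays lay at 0.731 to 0.782 and the other 6 h arrays at 0.988 to 1.11. The mean levels of the 2 treatments at each time did not differ beyond their spread. The summed intensity of 10 oligodendrocyte lineage markers, of which 7 were bright enough to be tested, was 1917 to 2804 in GW5074 and 2357 to 2548 in low potassium at 6 h, against 2681 to 3417 in GW5074 and 3164 to 3985 in low potassium at 3 h. One of the 7, the myelin enzyme gene Cnp, was past the threshold, lower at 6 h in GW5074 (-0.61, adjusted p = 0.00906) and in low potassium (-0.66, adjusted p = 0.00687, limma). Purkinje and GABAergic neuron sums read 1483 to 1791 in GW5074 and 1508 to 1990 in low potassium at 6 h. At 3 h they read 1925 to 2199 and 1960 to 1992, and 1 of 7 markers was past the threshold as lower at 6 h in each treatment. The median difference of these 7 was -0.09 in GW5074 but 0.16 in low potassium, where the list as a whole was not lower. Of all tested probe sets, 11.9% were lower at 6 h in GW5074 and 11.0% in low potassium. The 6 h letter B arrays, where Igfbp3 was highest at 6 h, also had the highest fibroblast and meningeal marker sums, given with Igfbp2. The part of these marker lists in the Igfbp3 values was not tested.

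Igfbp5, a binding protein that also attaches to the extracellular matrix, was lower at 6 h in low potassium on 1 of its 4 testable probe sets. That probe set (1370960_at) read 206, 424 and 209 in the 6 h GW5074 arrays, against 103, 413 and 156 in the 6 h low potassium arrays. It read 460.2, 333 and 385 in the 3 h GW5074 arrays, against 469, 361 and 478 in the 3 h low potassium arrays. At 6 h letter B stayed at 3 h levels in both treatments, at 0.0134 (GW5074) and 0.0392 (low potassium) on the scale from 3 h to 6 h, so the times overlapped. The 6 h minus 3 h difference was -1.16 ± 0.376 in low potassium (adjusted p = 0.04) and -0.58 ± 0.376 in GW5074 (adjusted p = 0.282, limma), and the difference of these differences, 0.58, had an interval of -0.56 to 1.72. The low potassium call of Igfbp5 did not survive every choice. It was lost without low potassium 6 h array A (-0.75, adjusted p = 0.177) or C (-1.03, 0.132), and without low potassium 3 h array A (-1.10, 0.104), B (-1.27, 0.0755) or C (-1.10, 0.0943). It was also lost without GW5074 3 h array B (-1.16, 0.0528), without any filter (adjusted p = 0.0623) and without the mean-variance trend (0.0575).

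The other Igfbp5 probe sets gave no call in the full set of arrays. Probe set 1396152_s_at averaged 33.3 ± 16.7 in GW5074 and 43 ± 40.4 in low potassium at 6 h, and 67.9 ± 14.7 in GW5074 and 86.5 ± 34.6 in low potassium at 3 h (SD, n = 3 each), with 6 h minus 3 h differences of -0.76 in GW5074 (adjusted p = 0.174) and -0.97 in low potassium (adjusted p = 0.089). Probe sets 1387348_at and 1397830_at differed by 0.03 and -0.33 in GW5074 and by -0.50 and -0.58 in low potassium. All 4 testable Igfbp5 probe sets had values below 0 in low potassium, and all but 1387348_at did in GW5074. Without both 6 h letter B arrays, 7 of 15 member probe sets passed the threshold in GW5074 (31.4% of all probe sets) and 6 of 15 in low potassium (29.8% of all). The calls gained in GW5074 were Igf2r 1367636_at and Igfbp5 1370960_at (-0.91, adjusted p = 0.00296) and 1396152_s_at (-1.01, 0.0240). Those gained in low potassium were Igfbp5 1387348_at (-0.72, 0.0465) and 1396152_s_at (-1.48, 0.00323), while Igf1r 1368123_at was lost (0.53, 0.0539).

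Igfbp2, the binding protein known as abundant in developing brain, did not pass the test in any comparison. In the fit without a block it had the largest standard error of the 15 tested probe sets (0.420 on the log2 scale). Its probe set (1367648_at) read 168, 303 and 88.1 in the 6 h GW5074 arrays, against 183, 316 and 63.3 in the 6 h low potassium arrays. It read 174, 176 and 145 in the 3 h GW5074 arrays, against 165, 204 and 148 in the 3 h low potassium arrays. At 6 h letter B was the highest and letter C the lowest in both treatments, while the 3 h arrays lay close together. The 6 h minus 3 h differences were -0.03 in GW5074 and -0.15 in low potassium, with intervals of -0.93 to 0.87 and -1.05 to 0.75. The summed intensity of 12 fibroblast and meningeal markers on the array, of which 8 were bright enough to be tested, was also highest in the 6 h letter B arrays, at 4026 in GW5074 and 3726 in low potassium. The other 6 h arrays read 2046 and 2834 in GW5074 and 2070 and 3149 in low potassium. The part of these markers in the Igfbp2 and Igfbp5 values was not tested.

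Igfbp4, a binding protein that proteases cut to release ligand, did not pass the test in any comparison either. It averaged 94.7 ± 33.7 in GW5074 and 96.6 ± 8.47 in low potassium at 6 h, and 76.5 ± 27.1 in GW5074 and 88.1 ± 11.4 in low potassium at 3 h (SD, n = 3 each). The 6 h minus 3 h differences were 0.25 (-0.24 to 0.74) in GW5074 and 0.07 (-0.42 to 0.56) in low potassium.

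The substrate Irs2, which links the activated receptor to PI3-kinase, read 249, 334 and 202 in GW5074 and 239, 288 and 232 in low potassium at 6 h. At 3 h it read 163, 204 and 265 in GW5074 and 186, 254 and 227 in low potassium. All 4 groups overlapped, and the 6 h minus 3 h differences of 0.21 (-0.22 to 0.64) in GW5074 and 0.12 (-0.31 to 0.55) in low potassium did not pass the test. Irs1, the other substrate, was dim, at 22.9, 19.2 and 19.3 in GW5074 and 12.5, 27.1 and 22.6 in low potassium at 6 h, and 33.6, 28.8 and 13.5 in GW5074 and 22.4, 29.9 and 16.4 in low potassium at 3 h.

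GW5074 against low potassium is the study's treatment comparison, and no member probe set passed the threshold in it. The count was 0 of 15 at 6 h, at 3 h, for the mean of both times and for the difference of the GW5074 effect between 6 h and 3 h (limma without a block), where 0% of all 18625 tested probe sets passed in each. With the replicate block, which pairs the arrays of 1 letter and time, it was again 0 of 15 in all 4. There 1.87% of all probe sets passed at 6 h, 0.0161% at 3 h, 0.236% for the mean and 0.177% for the difference. With the pair as a random block, which estimates 1 correlation within pairs, it was 0 of 15 in all 4 too, where 0.553% of all passed at 6 h, 0.0966% for the mean and 0% for the other comparisons. No comparison of the treatments therefore gave a member call in the full set of arrays, in any of these fits. At an unadjusted p under 0.05, the members counted 0 at 6 h (4.81% of all), 0 at 3 h (1.61%), 0 for the mean (2.51%) and 1 for the difference (3.46%) without the block. With it they counted 2 at 6 h (16.3%), 0 at 3 h (6.58%), 0 for the mean (10.1%) and 2 for the difference (13.5%). These counts are near the shares of all probe sets, and nothing is read from them. After normalisation, the arrays of the 2 treatments were separated for 0 of 15 at 6 h (9.74% of all) and 0 of 15 at 3 h (7.22% of all). The median difference of the 15 was 0.06 at 6 h and -0.09 at 3 h, against 0.0015 and -0.0033 over all tested probe sets.

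The size of GW5074 effect that these arrays leave possible differs among the members, and the intervals given here are from the fit without a block. For the brighter Igf1r probe set the difference at 6 h was 0.14 with a 95% interval of -0.35 to 0.62, and for Igfbp3 1367652_at it was -0.0015 (-0.43 to 0.42). For Irs2 it was 0.01 (-0.42 to 0.44), and for Igf1 1370333_a_at -0.21 (-0.89 to 0.47). Without a block, the intervals of Igfbp2 (-0.84 to 0.96) and Igfbp5 1370960_at (-0.37 to 1.24) were the widest among the probe sets that stand for their gene. This order depends on the fit. With the replicate block the standard error fell from 0.420 to 0.127 for Igfbp2 and from 0.376 to 0.132 for Igfbp5 1370960_at. The largest among these probe sets was then that of Igf1 1370333_a_at, at 0.179. At 3 h the estimates over the 15 probe sets ran from -0.27 to 0.26. A p that misses the threshold does not show that the treatments gave the same level.

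Igfbp5 1370960_at had the lowest adjusted p of the members at 6 h with the replicate block. GW5074 was higher than low potassium in all 3 same-letter pairs at 6 h, by 0.89 (A), 0.03 (B) and 0.38 (C), a mean of 0.43. The adjusted p was 0.983 without the block, 0.106 with it and 0.394 with the pair as a random block (limma). With the letter B pair left out of the block fit the difference was 0.64 ± 0.142 SE and passed the threshold (adjusted p = 0.0342), the only member call of GW5074 against low potassium in any setting tried. The share of all probe sets that passed in that setting is not given here, so nothing is read from this call. The other 3 Igfbp5 probe sets differed by 0.32 (1387348_at), -0.06 (1396152_s_at) and 0.16 (1397830_at) at 6 h, with adjusted p of 0.439, 0.924 and 0.803 with the block.

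**Figure D3:**
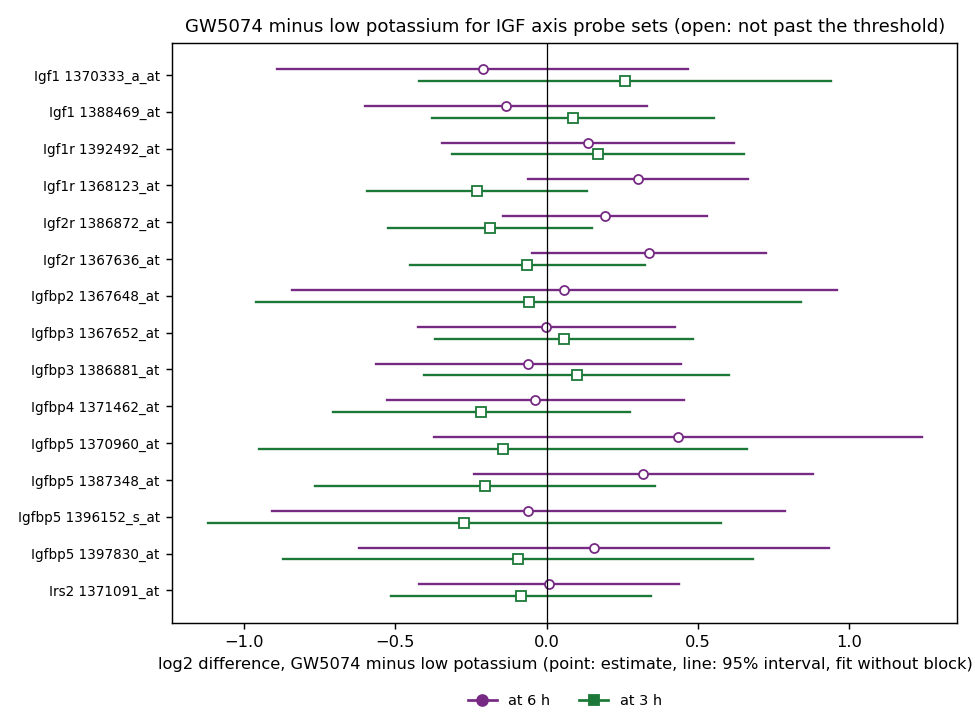
Log2 difference of each tested probe set of the insulin-like growth factor axis, GW5074 minus low potassium, at 6 h (circles) and 3 h (squares), with 95% intervals from the fit without a block (3 arrays a group). All points are open, since no probe set passed the threshold, and every interval holds 0.

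The wider pathway was followed through 6 lists: relatives of the ligands, receptors and carriers; proteases and stanniocalcins that act on the binding proteins; partners of Igf2 RNA; receptor adaptors; inhibitors of receptor signalling; and the PI3-kinase, AKT, mTOR and FOXO genes. Each gene was taken by its brightest probe set, and 56 genes were bright enough to be tested. At 6 h against 3 h, 12 were higher and 9 lower in GW5074, where 13.1% of all tested probe sets were higher and 11.9% lower. In low potassium 8 were higher and 10 lower, where 11.6% of all were higher and 11.0% lower. The median difference was 0.01 in GW5074 and -0.03 in low potassium. Of the 22 PI3-kinase, AKT, mTOR and FOXO genes, 7 were higher and 4 lower in GW5074, and 4 higher and 3 lower in low potassium. Of the 10 inhibitors, 2 were higher and 3 lower in GW5074, and 1 higher and 5 lower in low potassium. The lists differ in length, and nothing is read from the number of calls in each.

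Eif4ebp1, a translation repressor that mTOR phosphorylates, had the largest change of the 56. It read 124, 340.2 and 303 in the 6 h GW5074 arrays, against 153, 377 and 268 in the 6 h low potassium arrays. It read 1579, 1529 and 1053 in the 3 h GW5074 arrays, against 1479.9, 1385 and 1088 in the 3 h low potassium arrays. The 6 h arrays lay far below the 3 h arrays, 5.48-fold lower in GW5074 (-2.45 ± 0.332, adjusted p = 3.61e-04) and 4.92-fold lower in low potassium (-2.30 ± 0.332, adjusted p = 7.52e-04, limma). Lower at 6 h in both treatments were also Inppl1, a lipid phosphatase that opposes PI3-kinase (-1.36 in GW5074, -1.54 in low potassium), Stc2, a stanniocalcin that blocks a binding protein protease (-1.31 in GW5074, -1.15 in low potassium), and Grb10, an adaptor that restrains the insulin and Igf1 receptors (-0.92 in GW5074, -1.11 in low potassium). Higher at 6 h in both were Pik3ip1, which binds and inhibits PI3-kinase (1.38 in GW5074, 1.46 in low potassium), Foxo3, a transcription factor that AKT keeps out of the nucleus (1.23 in GW5074, 0.89 in low potassium), and Rictor, a subunit of mTOR complex 2 (0.86 in GW5074, 0.87 in low potassium). The calls of these 7 genes held in both treatments under every alternative tried.

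Further calls with time were made in 1 treatment or both. Gab1, a docking adaptor, was higher at 6 h (0.81 in GW5074, 0.65 in low potassium), as were the PI3-kinase subunits Pik3ca (0.82 in GW5074, 0.70 in low potassium) and Pik3r3 (0.50 in GW5074, 1.06 in low potassium). Igf2bp2, which binds Igf2 RNA, was lower (-0.89 in GW5074, -1.14 in low potassium), as were the kinase Akt1 (-0.46 in GW5074, -0.76 in low potassium), the receptor inhibitor Grb14 (-0.71 in GW5074, -0.94 in low potassium) and the mTOR activator Rheb (-0.30 in GW5074, -0.31 in low potassium). Past the threshold in GW5074 but not in low potassium were Insr, the insulin receptor (0.60 in GW5074, 0.49 in low potassium), Pik3cd (1.26 in GW5074, 0.58 in low potassium), Foxo4 (0.79 in GW5074, 0.42 in low potassium), Grb2 (0.46 in GW5074, 0.16 in low potassium), Rptor (0.40 in GW5074, -0.07 in low potassium), Ptprf (0.55 in GW5074, -0.18 in low potassium) and Pik3r1 (-1.64 in GW5074, -0.57 in low potassium). Past it in low potassium but not in GW5074 were the adaptors Sh2b1 (0.43 in GW5074, 0.67 in low potassium) and Shc2 (0.11 in GW5074, 0.65 in low potassium), the phosphatase Ptpn1 (-0.12 in GW5074, -0.55 in low potassium) and the inhibitor Socs3 (-0.54 in GW5074, -0.92 in low potassium). Calls that held under every alternative were those of Gab1, Pik3ca, Ptprf and Pik3r1 in GW5074 and those of Igf2bp2, Pik3r3 and Akt1 in low potassium. Each of the others was lost with at least 1 single array left out. Counted over the alternatives tried, the GW5074 calls were lost in 2 of 21 for Grb2, 3 of 20 for Foxo4, 3 of 21 for Igf2bp2, 5 of 21 for Pik3r3, 6 of 20 for Insr, 7 of 21 for Rheb, 10 of 20 for Grb14, 12 of 21 for Akt1, 12 of 20 for Pik3cd and 13 of 21 for Rptor. The low potassium calls were lost in 1 of 20 for Grb14, 3 of 20 for Socs3, 4 of 21 for Gab1, 4 of 21 for Pik3ca, 4 of 21 for Ptpn1, 4 of 21 for Sh2b1, 4 of 20 for Shc2 and 7 of 21 for Rheb. A difference between the treatments in the change with time passed the threshold for Ptprf and Pik3r1, with the replicate block, and for no other gene of the 56. Neither passed with the pair as a random block, and each was lost in 8 of the 12 alternatives to the block fit.

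**Figure D4:**
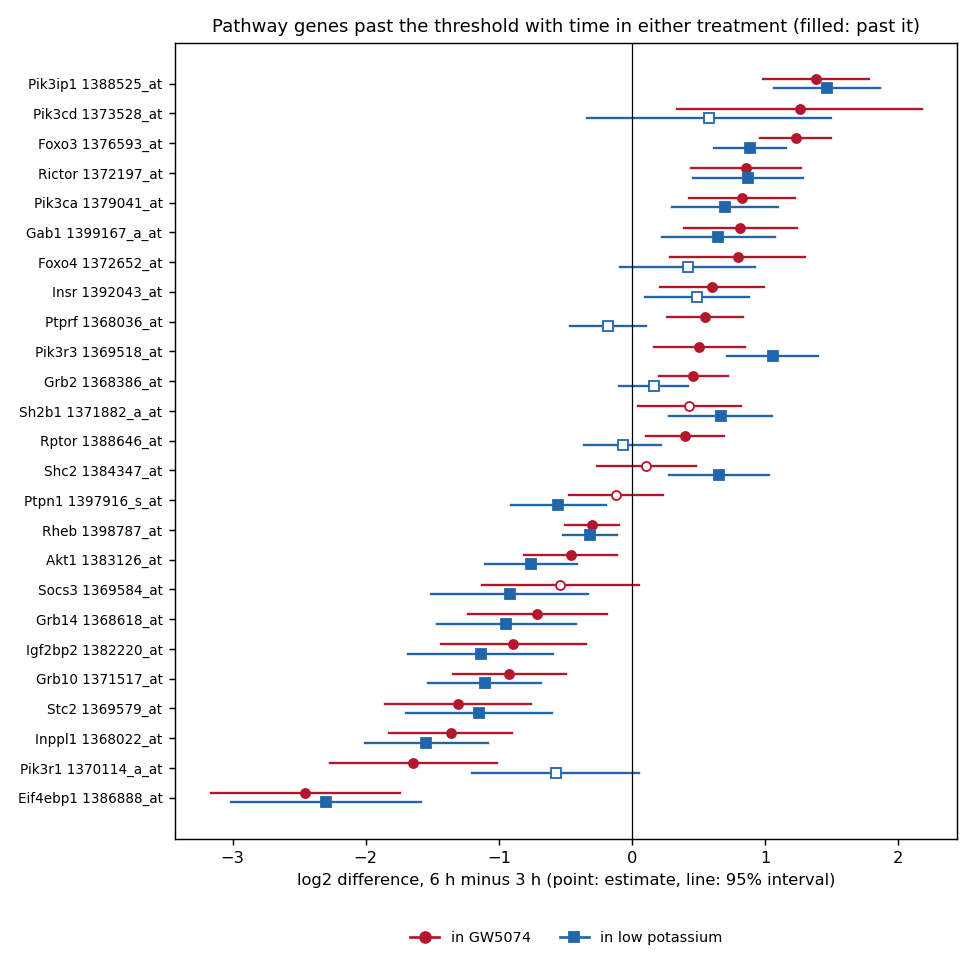
Log2 difference, 6 h minus 3 h, of the 25 pathway genes past the threshold in either treatment, in GW5074 (circles) and low potassium (squares), with 95% intervals from the fit; filled points passed the threshold. Pik3ip1, Foxo3 and Rictor are filled right of 0 in both treatments, and Eif4ebp1, Inppl1, Stc2 and Grb10 are filled left of 0 in both.

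GW5074 against low potassium gave calls at 6 h in 3 of 56 pathway genes, and only in fits that pair the arrays of 1 letter, where 1.87% of all probe sets passed with the replicate block and 0.553% with the pair as a random block. Without pairing, 0 of 56 passed at either time, as did 0% of all probe sets. There an unadjusted p under 0.05 was reached by 6 at 6 h (4.81% of all probe sets) and 0 at 3 h (1.61% of all). With the replicate block it was reached by 16 of 56 at 6 h (16.3% of all) and 6 of 56 at 3 h (6.58% of all). In the replicate block fit at 6 h, 2 of 12 granule neuron markers also passed, both higher with GW5074: Slc17a7, a vesicular glutamate transporter (0.42, adjusted p = 0.00429), and Kcnd2, a potassium channel (0.48, adjusted p = 0.0122). Their part in the 3 calls was not tested. Pik3r1, a regulatory subunit of PI3-kinase, was lower with GW5074 at 6 h. It read 63.2, 124 and 45 in the 6 h GW5074 arrays, against 176, 232 and 96 in the 6 h low potassium arrays. It read 294, 262 and 213 in the 3 h GW5074 arrays, against 264, 198 and 247 in the 3 h low potassium arrays. At 6 h GW5074 was the lower in each letter, though the groups overlapped, and letter B was the highest of each group. The 6 h difference was -0.96 (adjusted p = 0.00166 with the block and 0.919 without it, limma), and it was 0.11 at 3 h (adjusted p = 0.952 with the block). The difference between them, -1.07, passed with the block (adjusted p = 0.042) and not without it (1) or with the pair as a random block (0.172), whereas the 6 h call of Pik3r1 was also made there (adjusted p = 0.0301).

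Plat, the serine protease tissue plasminogen activator, whose product plasmin can cut binding proteins, was lower with GW5074 at 6 h. It read 325, 428 and 179 in the 6 h GW5074 arrays, against 814, 616 and 474 in the 6 h low potassium arrays. It read 332, 437 and 387 in the 3 h GW5074 arrays, against 388, 447 and 450.3 in the 3 h low potassium arrays. The 6 h GW5074 arrays all lay below the 6 h low potassium arrays. The difference was -1.07 at 6 h (adjusted p = 5.30e-04 with the block and 0.541 without it) and -0.15 at 3 h (adjusted p = 0.915 with the block). The mean of both times, -0.61, passed with the block (adjusted p = 0.00662), though not with the pair as a random block (0.0752) or with the 3 h letter A pair of Plat left out (-0.59, adjusted p = 0.0626). The 6 h call of Plat was also made with the random block (adjusted p = 0.0107).

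Ptprf, a receptor phosphatase that acts on the insulin receptor, was higher with GW5074 at 6 h. It read 389, 346 and 406 in the 6 h GW5074 arrays, against 274, 249.6 and 285 in the 6 h low potassium arrays. It read 212, 238 and 280.0 in the 3 h GW5074 arrays, against 276, 288 and 315 in the 3 h low potassium arrays. At 6 h the GW5074 arrays all lay above the low potassium arrays. At 3 h GW5074 was the lower in each letter, and the groups were separated after normalisation but not in the deposited values. The difference was 0.47 at 6 h (adjusted p = 0.0225 with the block and 0.796 without it, limma) and -0.26 at 3 h (adjusted p = 0.7 with the block), and the change between them, 0.73, passed with the block (adjusted p = 0.0468) and not without it (1) or with the random block (0.16). At 6 h the random block also called Ptprf (adjusted p = 0.0401). The 6 h call of Ptprf was lost from the block fit with the 6 h pair A (0.47, adjusted p = 0.131), B (0.48, 0.0649) or C (0.45, 0.0936) left out.

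The lists without a call in this comparison are given at 6 h by their lowest p-values. Among relatives of the ligands and receptors, the differences were -0.22 for Igfbp7, -0.17 for Igfbp1, 0.07 for Insr and 0.03 for Ins1. Among the partners of Igf2 RNA they were 0.33 for Igf2bp3, 0.24 for Igf2bp2 and -0.05 for H19. Among the adaptors they were -0.38 for Shc2, 0.19 for Ptpn11, 0.17 for Grb2 and -0.10 for Sos2. The lowest adjusted p of these with the replicate block was 0.239, for Ptpn11.

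**Figure D5:**
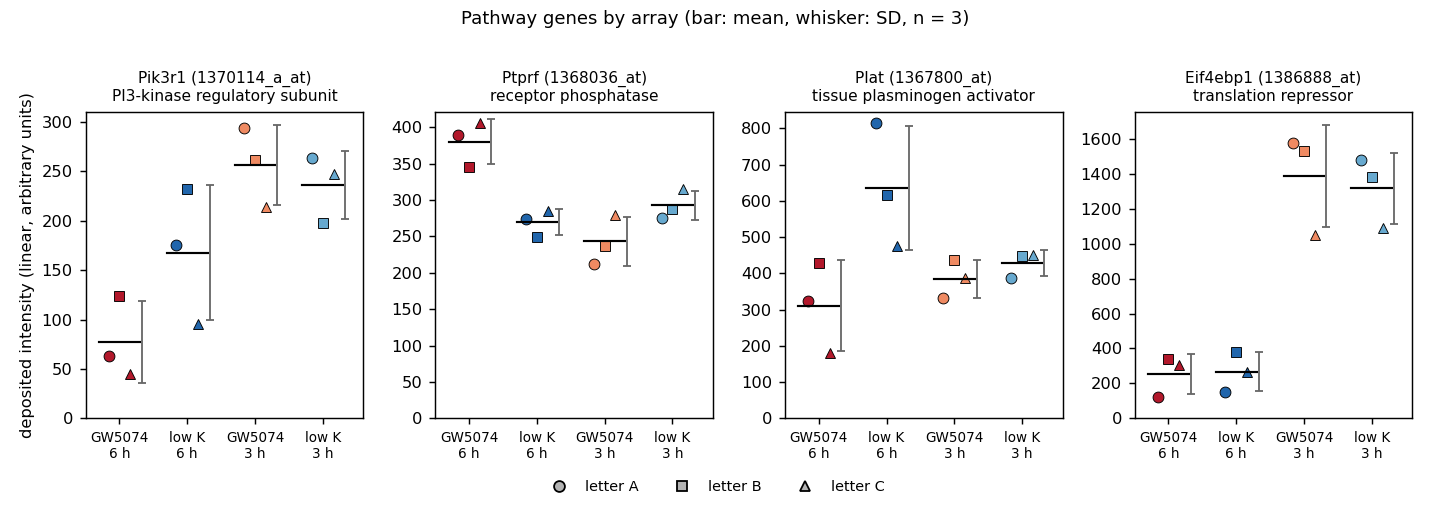
Deposited intensity (linear scale) of Pik3r1, Ptprf, Plat and Eif4ebp1 on every array, by group (low K, low potassium), with the letter as the marker, the mean as a bar and the SD as a whisker (n = 3). At 6 h each GW5074 array of Pik3r1 and Plat lies below the low potassium array of its letter and each of Ptprf above it, while Eif4ebp1 is low in all 6 h arrays.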

How the data were processed

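The deposited values were linear intensities, a single one for each probe set on each array. From the values, the authors had scaled each array to a mean of 150 without the lowest and highest 2%; software and background steps, not given in the sources used here, are unknown. The values were quantile-normalised, 16 was added and log2 taken. Of 31042 probe sets that are not controls, 18625 with a mean at or above the 40th percentile (28.0) were tested in 1 fit of 4 group means (limma 3.58.1, R 4.3.3, empirical Bayes with mean-variance trend, two-sided, Benjamini-Hochberg at 0.05 over all probe sets), without a block. The alternative with a replicate block took the letter within each time as a pair. Same-letter arrays of the treatments deviated together (correlation 0.210 to 0.650 in 6 pairs). Each GW5074 array was compared only with the low potassium arrays of its time, and the same letter was its best match. Pairs nest in time, so this block gives no 6 h minus 3 h value. The pair was also fitted as a random block (duplicateCorrelation). Names came from the platform table. The fits without and with the replicate block were also run on simulated data, for GW5074 against low potassium at each time only. Those data had no displaced letter B arrays, the 6 h minus 3 h comparisons were not examined there, and no result rests on them. Members, lists and tests were chosen with earlier results of these data known. Named genes were all members, and list genes past the threshold or, failing that, the 4 with the lowest p. Figures were drawn with matplotlib.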

Additional observations from a re-analysis of the deposited data

Results flagged for a closer look

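Pik3r1 and Ptprf had GW5074 effects that differed between 6 h and 3 h, by -1.07 for Pik3r1 and 0.73 for Ptprf (log2, limma adjusted p = 0.0420 and 0.0468 with the replicate block). The block fit lost both calls in 8 of 12 alternatives. With the 3 h pair A, B or C left out, the difference was -1.05, -0.93 or -1.23 for Pik3r1 and 0.68, 0.73 or 0.77 for Ptprf (adjusted p of 0.0867 to 0.186 over these 6 values). With the 6 h pair A or C left out it was -0.95 or -1.13 for Pik3r1 and 0.73 or 0.71 for Ptprf (adjusted p of 0.0623 to 0.127). The dim Igf1 probe set 1382599_at read 22.5, 29.2 and 15.4 in GW5074 and 20.1, 13.9 and 11.4 in low potassium at 6 h, and 28.4, 21.9 and 15.4 in GW5074 and 33.2, 25.2 and 33.4 in low potassium at 3 h. GW5074 was higher in every 6 h pair and lower in every 3 h pair, a difference of 0.62 in the fit with no filter (adjusted p = 0.99977). The probe set was too dim for the fit used above, where the difference was not tested.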

How the results depend on the processing

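Alternatives changed the pairing, normalisation, pseudocount (1 and 64), filter (none and the 60th percentile), variance model and the arrays kept. Of 9 member calls, 7 held in every setting; the others are Igf1r 1368123_at and Igfbp5 1370960_at in low potassium, given above. No called value changed direction, while 47 of 81 uncalled values did in at least 1 setting and 5 gained a call, all between 6 h and 3 h. One more, Igfbp5 1370960_at in GW5074 against low potassium at 6 h, gained a call in the block fit without the letter B pair. The cause was not tested. Member calls between 6 h and 3 h in GW5074 numbered 4, and 7 with both 6 h letter B arrays left out. In low potassium they numbered 5, 3 without a filter (of 22 tested), and 3 to 5 with each array left out in turn. Members called for GW5074 against low potassium numbered 0 with the replicate block in all 4 comparisons, and 0 to 1 at 6 h when each same-letter pair was left out of it. The block changed no member call. Of 39 pathway calls with time, 21 held in every setting. None of the 6 pathway calls made with the block passed without a mean-variance trend, where the adjusted p was 0.124 for Plat and Pik3r1 and 0.184 for Ptprf at 6 h; among changes to the block fit, those of Plat and Pik3r1 at 6 h were lost in that setting only. As a random block (estimated correlation 0.496), pairing kept the 3 calls at 6 h and lost the other 3. Dim probe sets limit what can be said of Igf2 and Irs1.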
